A study of Mus musculus with 6 samples.

Results

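Mitochondrial ribosomal proteins were examined in the quadriceps, a thigh muscle, of newborn mice lacking Klhl40. The genes were taken by symbol, as those beginning with Mrpl or Mrps and a digit. Each needed a probe with a detection p under 0.05 on at least 3 of the 6 arrays, and the brightest such probe stood for its gene. Of 76 such symbols on the array, 72 met the rule, out of 13455 genes tested in the series. The rule did not compare the genotypes, but a dim gene can meet it through the arrays on which it is higher.

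RNA came from 3 wild-type (WT) and 3 Klhl40 knockout (KO) mice, all C57BL/6, at 0 days of age, with 1 Illumina bead array for each mouse. Every KO mouse was killed together with a WT littermate. The age was chosen so that genes altered by poor feeding would weigh less in the comparison, which asked which muscle genes differ with the loss of Klhl40, a muscle kelch protein. The kind of Klhl40 allele, the tissue in which it was deleted and the sex of the animals are not given in the labels. Whole muscle was used, so a difference in the number of cells of a type and a difference in RNA per cell cannot be told apart.

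The mitochondrial ribosome translates the few proteins encoded by mitochondrial DNA, all of them subunits of the oxidative phosphorylation complexes. Its rRNAs come from mitochondrial DNA, while each of its proteins is made in the cytosol from a nuclear gene and imported. Part of them descend from bacterial ribosomal proteins and the rest are particular to mitochondria. In humans, mutations in several of these genes cause combined oxidative phosphorylation deficiency, with heart or muscle among the affected tissues.

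Each array detected 18373 to 19189 of 45281 probes, and median bead intensities lay between 111 and 113. A level is a log2 normalised intensity, and each difference is KO minus WT on that log2 scale. Klhl40 itself, the check of the genotype labels, had a mean ± SD of 10.72 ± 0.08 over the WT mice and 4.99 ± 0.66 over the KO mice (n = 3 each, limma adjusted p = 0.00115). Of the defining markers of skeletal muscle, 9 of 10 had a detected probe, and their summed linear intensity was 230443 to 235864 in WT and 233582 to 234803 in KO. Quantile normalisation, which sets every array to the same values, leaves the brightest probes nearly equal on all arrays. The sum of these very bright markers is therefore close to fixed and cannot compare muscle content between mice. WT 3 stood apart from the other mice in adipocyte markers, while WT 3 and KO 3 were both low in cell cycle markers. The 5 of 9 adipocyte markers detected had a summed linear intensity of 5849 in WT 3. The sum was 599 and 1478 in the other WT mice and 826 to 1245 among the KO mice, while Fabp4, Pck1 and Retn were not detected. The 7 of 10 cell cycle markers detected summed to 2423 in WT 3 and 2621 in KO 3, and to between 3197 and 3242 in the remaining 4 mice, while Ccna2 was not detected.

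Of the 76 mitochondrial ribosomal symbols on the array, 72 met the detection rule in newborn muscle. None of these 72 passed the test between genotypes. Detection on at least 3 arrays was itself a condition of membership. Of the 72 members, 70 were detected on all 6 arrays, Mrpl57 on 5 and Mrpl39 on 4. Their differences were small and mostly positive: 51 of 72 (70.8%) were above 0, against 49.3% of all 13455 genes. The median member difference was 0.039, a fold of 1.03, and the median of all genes was -0.0022. Without WT 3, 43 of 72 members (59.7%) were above 0 and the median was 0.015. The middle 50% of members lay between -0.013 and 0.098, and the middle 50% of all genes between -0.10 and 0.10. No member reached a limma adjusted p of 0.05 in either direction. Over all genes, 0.111% were called higher and 0.0372% lower at that threshold. At limma's unadjusted 0.05, 2 members (2.78%) passed, both higher in KO, against 7.28% of all genes in either direction and 3.89% higher.

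**Figure D1:**
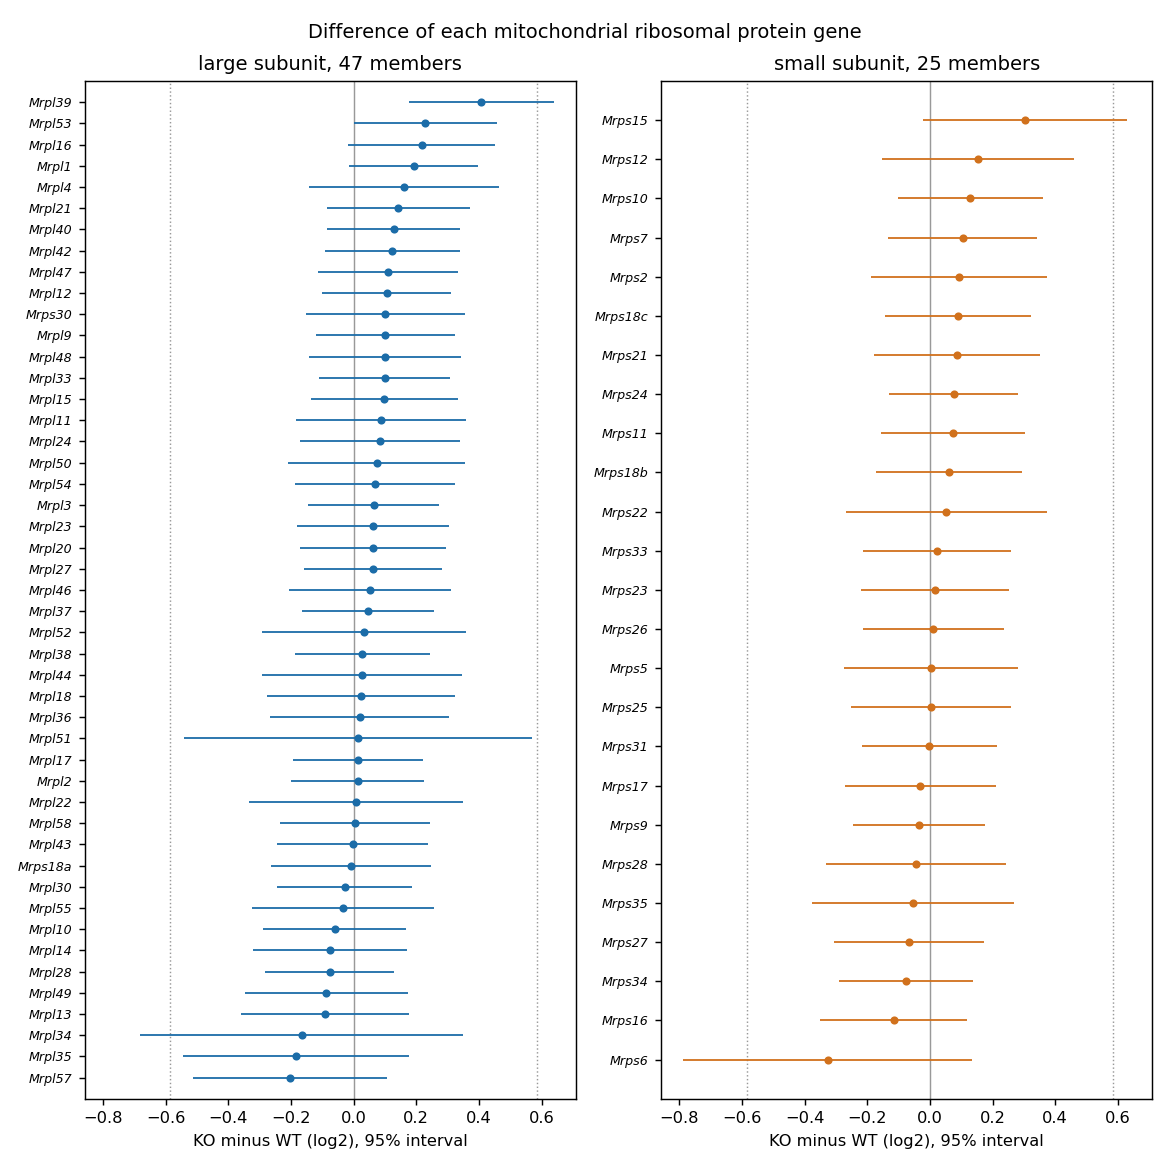
Difference KO minus WT in log2 normalised intensity for each of the 72 members, with the 95% confidence interval from limma as a bar. The differences run from -0.33 (Mrps6) to 0.41 (Mrpl39) and 51 of 72 lie above 0.

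The data set bounds on how far the signal of each member's brightest probe could differ. They do not cover the other probes of a gene, some of which differed more, as set out below. The 95% interval of the difference lay wholly inside 1.5-fold in either direction for 68 of 72 members, against 80.8% of all genes tested. It lay inside 1.25-fold for 33 members. The 4 members whose interval reached past 1.5-fold were Mrpl34, Mrpl39, Mrps15 and Mrps6. The mice of a genotype lay close together for these genes. The median SD of a member was 0.11 over the WT mice and 0.065 over the KO mice, against 0.15 and 0.14 over all genes. In the related gene lists read below, the WT median ran from 0.067 (cytosolic ribosomal proteins) to 0.13 (mitochondrial transcription). The KO median ran from 0.061 (cytosolic ribosomal proteins) to 0.17 (mitochondrial translation factors). Within an array, the standard error of a member's bead intensity had a median of 3.43% of that intensity, from a median of 40 beads.

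Mrpl39, a large subunit protein related to threonyl-tRNA synthetase, had the smallest p among the members. Its level was 4.84, 4.72 and 4.63 in WT 1 to WT 3 and 5.08, 5.16 and 5.18 in KO 1 to KO 3. Every KO mouse lay above every WT mouse. The difference was 0.41 (SE 0.10, 95% interval 0.18 to 0.64), and the limma adjusted p was 0.333. Mrpl39 was also the dimmest member, and its uncorrected bead intensity had a mean ± SD of 116 ± 1.93 over the 3 WT mice and 125 ± 2.07 over the 3 KO mice, near the median of all probes. The size of its difference moved with the background correction and was 0.11 without it.

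Mrpl53, a mitochondria-specific protein of the large subunit, is among the bright members. It gave 11.43, 11.53 and 11.39 in WT and 11.65, 11.62 and 11.78 in KO, with no overlap. The difference was 0.23 (SE 0.10, 95% interval 0.001 to 0.46, limma adjusted p = 0.682). Mrpl1, the counterpart of the bacterial protein of the mobile stalk beside the tRNA exit site, gave 9.255, 9.354 and 9.312 in WT and 9.478, 9.515 and 9.503 in KO. All 3 KO mice were again above all 3 WT mice, by 0.19 (SE 0.09, limma adjusted p = 0.712). Mrpl16, whose bacterial counterpart lies near the peptidyl transferase centre, gave 7.61, 7.65 and 7.47 in WT and 7.86, 7.80 and 7.71 in KO. These groups did not overlap either, and the difference was 0.22 (SE 0.10, limma adjusted p = 0.712).

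In all, 9 of 72 members (12.5%) had groups that did not overlap, near the 13.3% of all genes. Of these, 8 (11.1%) were higher in KO, against 6.93% of all genes, and 1, Mrpl28, was lower, against 6.42% of all genes. This split depended on WT 3 and KO 3: without WT 3 it was 9 higher and 9 lower, and without KO 3 it was 10 higher and 6 lower. With all mice, the other 4 higher members had smaller differences. Mrpl12, the stalk protein that recruits translation factors, gave 11.39, 11.36 and 11.32 in WT and 11.50, 11.43 and 11.46 in KO. Its groups were separated by a narrow margin, and the difference was 0.11 (SE 0.09, 95% interval -0.10 to 0.31). Mrpl40 differed by 0.13, Mrpl42 by 0.12 and Mrps24, the counterpart of bacterial S3, by 0.08, with limma adjusted p of 0.861, 0.872 and 0.929. Mrpl28 gave 11.03, 10.99 and 11.02 in WT and 10.88, 10.98 and 10.95 in KO, which put the KO mice lower by a narrow margin, at -0.08 (SE 0.09). It was chosen for naming after its values were seen.

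**Figure D2:**
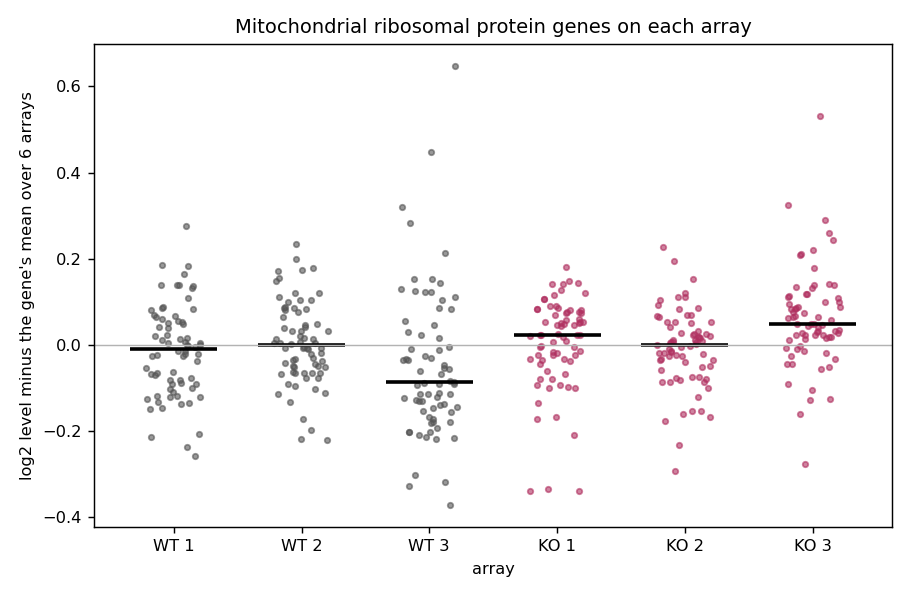
Each point is 1 of the 72 members on 1 array, as its log2 level minus its mean over the 6 arrays, and bars are medians over members. The medians are lowest on WT 3 (-0.086) and highest on KO 3 (0.048).

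The positive balance was uneven over the mice. The median member had a log2 level of -0.0098 in WT 1, -0.0013 in WT 2 and -0.086 in WT 3 relative to its own mean over the 6 arrays. In KO 1 to KO 3 these medians were 0.023, 0.00028 and 0.048. WT 3 held the lowest value of 34 members (47.2%, against 24.0% of all genes) and KO 3 the highest value of 22 (30.6%, against 16.6%). Within littermate pairs the median difference was 0.0020 in pair 1, -0.026 in pair 2 and 0.12 in pair 3. In all 3 pairs, 12 members (16.7%) were higher in KO and 7 (9.72%) lower, against 17.2% and 16.7% of all genes. WT 3 is the mouse that stood apart in adipocyte markers, while its low cell cycle sum was shared with KO 3. Markers of other cell types lay mostly below 0, with none past the threshold: 0 of 9 macrophage and leukocyte markers were above 0 (median difference -0.086), 1 of 9 of fibroblasts and matrix (-0.11), 1 of 7 of endothelium (-0.077), 0 of 5 of adipocytes (-0.66) and 0 of 3 of the erythroid lineage (-0.097). Their summed linear intensity was 1760 to 2093 in WT and 1553 to 1839 in KO for macrophages and leukocytes. It was 22751 to 25776 against 21905 to 23101 for fibroblasts and matrix, 7635 to 8848 against 7508 to 8043 for endothelium, and 23919 to 28085 against 19069 to 28597 for the erythroid lineage. Without WT 3 the medians of macrophages and leukocytes, endothelium, adipocytes and the erythroid lineage were near 0, at -0.0020, 0.0023, -0.019 and -0.0026. That of fibroblasts and matrix was -0.072. The 2 brown fat markers detected disagreed: Ppara, dim and detected on 4 of 6 arrays, differed by 0.40 and Cidea by -0.027. Their median was 0.19, or 0.28 without WT 3, while Ucp1 and Elovl3 were not detected. The part of all these markers in the member differences was not tested.

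The large subunit has 47 of the members, counting Mrps18a and Mrps30, which carry small subunit names but are part of the large subunit. Its median difference was 0.052, with 35 of 47 above 0 and none past the threshold. Among its 28 proteins of bacterial descent 20 were above 0 (median 0.062), and among its 19 mitochondria-specific proteins 15 were above 0 (median 0.046). These medians were smaller under the settings given next, although with median centring the median of all genes also fell, to -0.033 from -0.0022. Not every alternative lowered the medians, and under some the median of all members was larger than in the main fit. With median centring, with array weights and without WT 3 in turn, the large subunit gave 0.025, 0.020 and 0.016, its proteins of bacterial descent 0.022, 0.025 and 0.024, and its mitochondria-specific proteins 0.025, -0.00495 and 0.000040. Mrpl21 gave 10.33, 10.46 and 10.28 in WT and 10.43, 10.50 and 10.57 in KO, where WT 2 lay above KO 1, a difference of 0.14 (limma adjusted p = 0.850). Mrpl3, mutated in some human cardiomyopathies, gave 10.02, 9.98 and 10.03 in WT and 10.02, 10.07 and 10.14 in KO. The mice overlapped, and the difference was 0.06 (limma adjusted p = 0.941). Mrpl44, a relative of ribonuclease III whose human mutations cause cardiomyopathy, gave 9.21, 9.51 and 9.07 in WT and 9.35, 9.15 and 9.36 in KO. WT 2 was the highest and WT 3 the lowest of the 6 mice, and the difference of 0.03 turned sign in several alternatives. Mrpl33, the brightest member, gave 12.11, 12.16 and 12.08 in WT and 12.22, 12.27 and 12.16 in KO, where WT 2 and KO 3 met, and differed by 0.10. Mrpl23, whose counterpart lines the exit tunnel, differed by 0.06.

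The lowest differences of the large subunit, those of Mrpl57, Mrpl35 and Mrpl34, came from dim or variable genes. Its highest, that of Mrpl39, came from a dim gene too, and bright genes such as Mrpl13 and Mrpl28 also lay below 0. Mrpl57, formerly Mrp63, gave 5.21, 5.05 and 5.18 in WT and 4.71, 4.96 and 5.16 in KO. KO 3 lay inside the WT range, and the difference was -0.20 (SE 0.13, limma adjusted p = 0.839). Mrpl35 gave 5.62, 5.87 and 6.08 in WT and 5.67, 5.47 and 5.87 in KO, again with overlap, and differed by -0.18 (limma adjusted p = 0.896). Mrpl34 gave 8.86, 8.66 and 9.30 in WT and 8.52, 8.63 and 9.18 in KO. The pair 3 mice were the highest of both groups, and the difference of -0.17 (SE 0.22) became 0.017 without WT 3. Mrpl51, another dim gene, was highest in KO 3 at 6.49 and in WT 3 at 6.24, against 5.62 to 5.89 in the other mice, and differed by 0.01. Mrps18a differed by -0.01 and Mrps30 by 0.10 (limma adjusted p of 0.995 and 0.922).

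The small subunit has 25 members, with a median difference of 0.017, 16 of 25 above 0 and none past the threshold. Among its 16 proteins of bacterial descent 11 were above 0 (median 0.074). Its 9 mitochondria-specific proteins lay closest to 0, with 5 above it, a median of 0.0032 and a range of -0.08 to 0.05. With median centring, with array weights and without WT 3 in turn, the small subunit median was 0.00025, 0.0068 and 0.011. That of its proteins of bacterial descent was 0.035, 0.040 and 0.033, and that of its mitochondria-specific proteins -0.028, -0.029 and -0.036. The median of all genes in these settings was -0.033, -0.0020 and -0.0028. Mrps15, whose bacterial counterpart binds rRNA early in assembly, gave 6.50, 6.14 and 5.99 in WT and 6.51, 6.56 and 6.48 in KO. WT 1 reached the KO range, and the difference was 0.30 (SE 0.14, 95% interval -0.02 to 0.63, limma adjusted p = 0.712). Mrps6 gave 8.10, 8.22 and 8.89 in WT and 8.03, 8.09 and 8.11 in KO. WT 3 stood above the other 5 mice, and the difference of -0.33 (SE 0.20, 95% interval -0.79 to 0.13, limma adjusted p = 0.827) was -0.084 without WT 3. In both genes the 3 KO mice lay close together and the WT mice were spread, with an SD of 0.26 for Mrps15 and 0.42 for Mrps6 in WT and 0.04 for each in KO.

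Mrps12 belongs to the decoding centre, where the small subunit reads the codon. It gave 9.98, 10.09 and 10.28 in WT and 10.15, 10.18 and 10.48 in KO. The pair 3 mice were the highest in both genotypes, and the difference was 0.15 (SE 0.13, 95% interval -0.15 to 0.46, limma adjusted p = 0.898). Mrps7, an rRNA-binding protein of the head of the subunit, gave 10.79, 10.81 and 10.57 in WT and 10.83, 10.79 and 10.86 in KO, and only WT 3 lay clearly below the rest. Its difference was 0.10 (limma adjusted p = 0.914). Mrps16, Mrps22 and Mrps34 are known from human oxidative phosphorylation deficiency. They differed by -0.12, 0.05 and -0.08 (limma adjusted p of 0.901, 0.971 and 0.932), with overlapping groups for each. Of the 3 paralogues of bacterial S18, Mrps18b differed by 0.06 and Mrps18c by 0.09, beside -0.01 for Mrps18a.

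**Figure D3:**
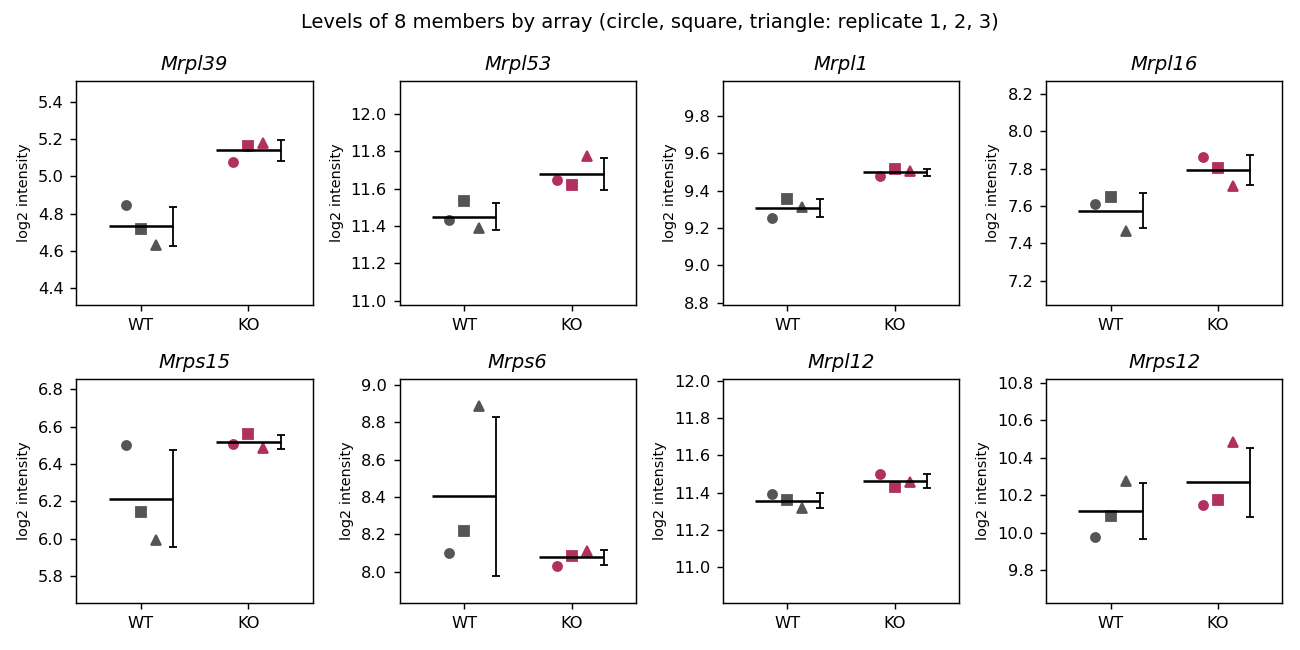
Log2 normalised intensity of 8 members in each mouse, with the group mean as a line and its SD as a bar (n = 3 each), where circles, squares and triangles are replicates 1 to 3 and every panel spans the same height on the log2 scale. The KO mice lie above the WT mice for Mrpl39, Mrpl53, Mrpl1, Mrpl16 and Mrpl12, and WT 3 stands apart for Mrps6.

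Another 4 symbols did not meet the detection rule. Mrpl19, Mrpl32, Mrpl45 and Mrps14 were detected on 0 of 6 arrays, with uncorrected mean intensities of 99.7 to 108 for all their probes, below the array medians. Mrpl45 encodes the protein that tethers the ribosome to the inner membrane at the exit tunnel, and its 2 probes gave 106 and 100. A probe that is not detected says nothing on whether the mRNA was made. Mrps36 and Mrpl41 were not analysed here.

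A further view came from the probes that the rule set aside. For 23 members the array held more than 1 detected probe, and these had 35 other probes, dimmer than the brightest, with a median uncorrected intensity of 385 against 1418. Of the 35, 31 (88.6%) were above 0, with a median difference of 0.12 and a range of -0.15 to 0.42. The brightest probes of the same 23 members had a median of 0.046. Over all genes with several probes, 53.0% of 5644 other probes were above 0, with a median of 0.012. In 14 of the 23 members all probes were above 0, and in none were all below 0. No member probe was called at a limma adjusted p of 0.05 over the 19099 detected probes.

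The probes of 1 gene share its RNA and are not replicates. Mrpl15 had the most, and its 6 probes differed by 0.10, 0.17, 0.23, 0.21, 0.15 and 0.23, in 4 of them without overlap of the groups. The last of the 6, which is among those 4, had a mean uncorrected intensity of 117 and was detected on only 3 of 6 arrays. A dim probe that is higher in KO can meet the detection rule through the KO arrays alone, so its direction gives no support of its own. For Mrpl47 the main probe differed by 0.11 and a dim one by 0.42, and for Mrps7 the values were 0.10 and 0.27. Probes disagreed in sign for Mrpl49, at -0.09 against 0.14, 0.08 and 0.21, for Mrpl13, at -0.09 against 0.20, and for Mrpl10, at -0.06 against 0.10. Of the 35 other probes, 16 had their lowest value in WT 3 and 12 their highest in KO 3. Without WT 3, 28 of 35 (80.0%) were above 0, 27 of them probes that were above 0 with all 6 mice, and the median was 0.097, while 51.1% of the other probes of all genes were above 0.

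**Figure D4:**
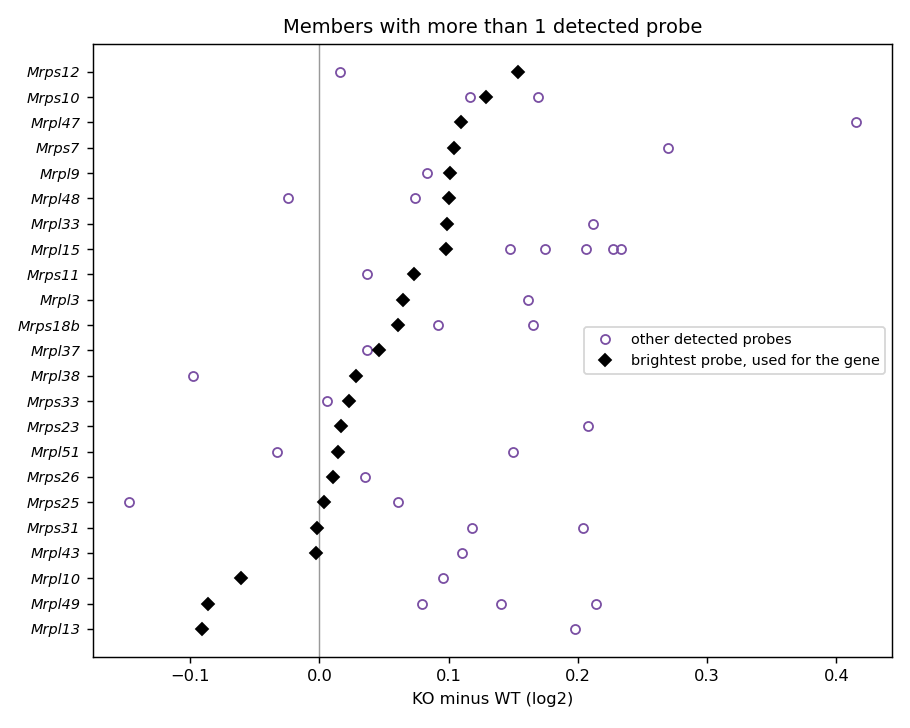
Differences KO minus WT, in log2 units, for every detected probe of the 23 members with more than 1. Filled diamonds are the brightest probes and open circles the 35 others, of which 31 lie above 0.

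Promoters of the members were read for motifs of factors known to act on nuclear genes of mitochondria. The balance of the members above 0 was uneven over the mice, and a shared factor behind it was not tested. RefSeq windows (assembly GRCm38.p6) of 250 bases before to 50 after the start were found for 64 of 72 members and for 8470 of the genes tested. Exact motifs were sought on both strands: CCGGAAG for ETS factors such as GABP, GCGCATGC for NRF1, AAGATGGCG for YY1, CACGTG for the E-box and TATAAA for the TATA box. None of these strings contains another. Shown 5′ to 3′ are the windows of the 2 members of smallest p, of Mrps12 and of Mrps11, which between them hold the first 3 motifs, with the motif or its reverse complement in capitals.
Mrpl39: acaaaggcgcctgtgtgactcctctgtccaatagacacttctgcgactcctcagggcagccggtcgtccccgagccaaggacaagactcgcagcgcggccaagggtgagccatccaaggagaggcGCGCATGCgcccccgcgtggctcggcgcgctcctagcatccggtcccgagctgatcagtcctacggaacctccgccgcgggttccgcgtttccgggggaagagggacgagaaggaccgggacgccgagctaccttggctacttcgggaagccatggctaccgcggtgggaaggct
Mrpl53: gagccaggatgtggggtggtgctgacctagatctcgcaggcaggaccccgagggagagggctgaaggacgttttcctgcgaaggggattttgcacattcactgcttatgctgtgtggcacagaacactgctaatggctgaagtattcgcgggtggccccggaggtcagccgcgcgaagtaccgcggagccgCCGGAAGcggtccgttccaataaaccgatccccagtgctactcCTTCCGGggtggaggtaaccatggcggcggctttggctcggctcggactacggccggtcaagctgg
Mrps12: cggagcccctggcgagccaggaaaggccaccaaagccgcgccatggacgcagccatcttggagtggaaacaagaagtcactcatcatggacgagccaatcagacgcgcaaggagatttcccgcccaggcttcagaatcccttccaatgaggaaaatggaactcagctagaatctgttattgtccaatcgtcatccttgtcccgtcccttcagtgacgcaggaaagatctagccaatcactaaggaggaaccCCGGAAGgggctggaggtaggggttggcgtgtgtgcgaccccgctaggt
Mrps11: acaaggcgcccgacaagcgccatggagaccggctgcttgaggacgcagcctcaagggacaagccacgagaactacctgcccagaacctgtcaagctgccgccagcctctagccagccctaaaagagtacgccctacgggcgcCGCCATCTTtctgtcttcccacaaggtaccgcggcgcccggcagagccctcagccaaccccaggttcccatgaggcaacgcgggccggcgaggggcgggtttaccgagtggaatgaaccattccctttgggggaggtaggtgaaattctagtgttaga
Mrpl39, with the smallest p, lies on the minus strand at chr16:84735195-84735494 and holds the NRF1 string. Mrpl53, on the plus strand at chr6:83108858-83109157, holds the ETS string once on each strand. Mrps12, on the minus strand at chr7:28741772-28742071, holds it at the start of its first exon. Mrps11, on the plus strand at chr7:78782881-78783180, holds the YY1 string in reverse complement.

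The ETS string was in the windows of 25 of 64 members (39.1%), against 17.5% of the 8470 tested genes and 9.12% of all 27025 RefSeq windows. The YY1 string was in 8 (12.5%), against 3.20% and 1.49%. The NRF1 string was in 7 (10.9%), against 5.36% and 2.80%. At least 1 of these 3 was in 34 members (53.1%), against 24.0% and 12.5%. The E-box was in 5 members (7.81%, against 10.3% of tested genes) and TATAAA in 4 (6.25%, against 7.86%). Median GC content was 58.5% in the members' windows and 60.7% in those of tested genes. A match is a string in a window and not a site shown to be bound.

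The KO minus WT difference was also set out by string. The 25 members with the ETS string had a median difference of 0.023, with 19 above 0, and the 39 without had 0.063, with 28 above 0. For NRF1 the medians were 0.061 in the 7 members with the string and 0.046 in the 57 without, and for YY1 0.033 in 8 and 0.052 in 56. These are descriptions with no test.

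Many of the genes share a start region with a neighbour on the other strand. The windows of 21 members (32.8%) overlapped that of a divergent gene, against 14.6% of the tested genes with a window, and for 15 the partner was tested too. Mrps11 and Mrpl46, 1 protein of each subunit, start 40 bases apart and differed by 0.07 and 0.05. Mrps12 starts 145 bases from Sars2, the mitochondrial seryl-tRNA synthetase, and the pair differed by 0.15 and 0.12. Mrpl47 and Ndufb5, a complex I subunit, start 306 bases apart and differed by 0.11 and 0.27. Other neighbours went apart: Mrps27 differed by -0.07 beside 0.24 for Ptcd2, and Mrpl57 by -0.20 beside 0.15 for Ska3.

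The other parts of the mitochondrial expression system were read in the same fit, and no gene of them passed the threshold. Of 4 further ribosomal proteins under other symbols 2 were above 0. Dap3, the GTP-binding protein of the small subunit, differed by -0.08 (SE 0.09), Ptcd3 by 0.23, Gadd45gip1 by -0.09 and Chchd1 by 0.03. Of 13 translation factors 8 were above 0 (median 0.041), with Tufm, the elongation factor that brings aminoacyl-tRNA, at 0.04 (SE 0.11, limma adjusted p = 0.973). The smallest p there belonged to Guf1, at 0.17, and Oxa1l, at 0.11. The list of mitochondrial tRNA synthetases had 18 genes, counting Gatb, Gatc and Qrsl1, which are not themselves synthetases. Of these 18 genes 10 were above 0 (median 0.0040), and the smallest p belonged to Vars2, at -0.25, and Iars2, at -0.15. Of 20 genes of ribosome assembly and rRNA modification 10 were above 0 (median 0.0032). Trub2, a pseudouridine synthase of the mitochondrial RNA granules, gave 11.15, 11.20 and 11.24 in WT and 11.41, 11.40 and 11.38 in KO, a difference of 0.20 without overlap (limma adjusted p = 0.701).

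Genes of mitochondrial transcription, RNA handling and biogenesis had a median of 0.039, with 13 of 19 above 0. Lrpprc, which stabilises mitochondrial mRNAs, gave 8.002, 8.089 and 8.023 in WT and 8.273, 8.167 and 8.404 in KO, which did not overlap and differed by 0.24 (limma adjusted p = 0.663). Tfam, which packages mitochondrial DNA, differed by 0.13 (SE 0.13), and Ppargc1a, a coactivator of mitochondrial genes, by 0.29 (SE 0.21). Of 19 import and folding genes 15 were above 0 (median 0.017). Timm10, a chaperone of the intermembrane space, had the smallest p of these lists: it gave 8.25, 8.37 and 8.25 in WT and 8.67, 8.78 and 8.75 in KO, without overlap, and differed by 0.44 (SE 0.09, limma adjusted p = 0.235). Timm50, a receptor subunit of the inner membrane translocase, had the next smallest p of the import and folding list and differed by -0.20. Oxidative phosphorylation subunits had a median of 0.050, with 30 of 45 above 0, and cytosolic ribosomal proteins 0.015, with 34 of 55 above 0. Ndufb5 and Atp5e, subunits of complex I and of ATP synthase, differed by 0.27 and 0.26 (limma adjusted p of 0.664 and 0.684), and the cytosolic Rps3a1 by 0.24 (limma adjusted p = 0.707). With median centring the medians of the synthetase, assembly, transcription and import lists were below 0, at -0.040, -0.037, -0.0081 and -0.011. The median of all genes was then -0.033, which lay below those of the transcription and import lists. The members' median of 0.039 lay among the medians of these lists, which ran from -0.026 to 0.050.

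**Figure D5:**
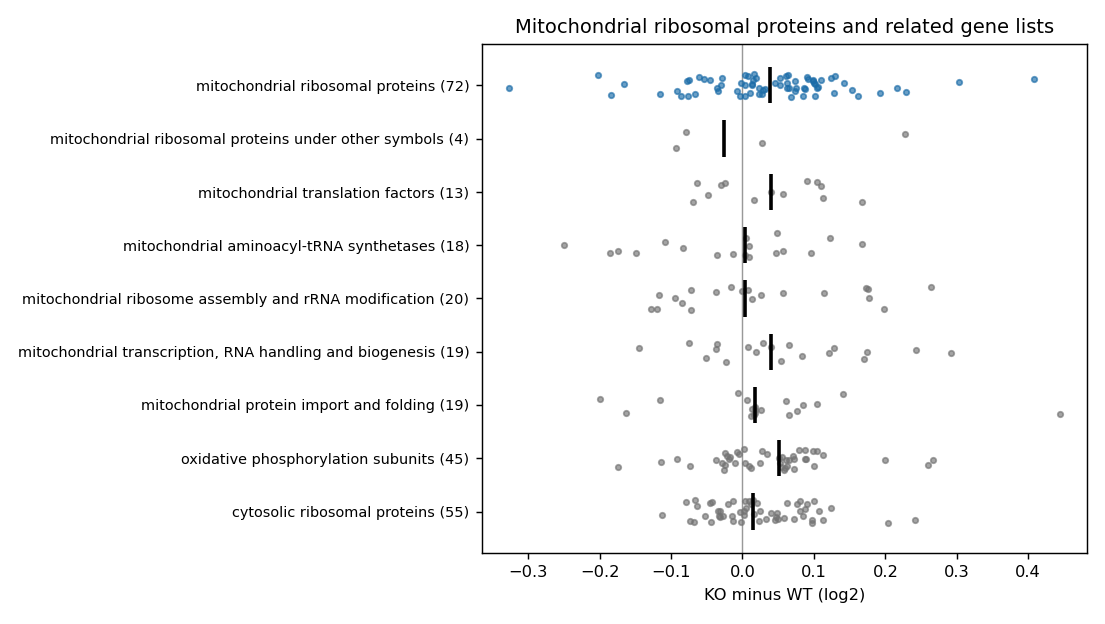
Differences KO minus WT, in log2 units, for the genes of each related list, with each list's median as a bar. The medians run from -0.026 to 0.050, and no gene of any list passed the adjusted threshold.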

How the data were processed

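Quadriceps RNA of 3 WT and 3 KO mice was measured on Illumina bead arrays, 1 per mouse. Per the file headers, the authors deposited for each probe and array a mean bead intensity, its standard error, a bead count and a p-value of detection. The intensity is linear without background subtraction, as its values show. A second deposited table holds 1 linear intensity per probe and array, quantile-normalised by its values, and served as an alternative. The labels' protocols name Trizol extraction and Cy3 labelling with a MessageAmp kit. No scanner software or version is given in the sources used here.

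Of 45281 probes, 34885 had 1 gene symbol, 18 several and 10378 none. Intensities were normalised with neqc of limma 3.58.1 in R 4.3.3: normexp background correction using negative controls that neqc infers from the p-values of detection, an offset of 16, quantile normalisation and log2. Probes with a detection p under 0.05 on at least 3 arrays were kept (19099), and the brightest probe per symbol gave 13455 genes, 2962 of them probes without a symbol. KO was compared with WT by limma's moderated test (lmFit, eBayes), two-sided, and p-values were adjusted by Benjamini-Hochberg over all 13455 genes, with calls made under 0.05. The script was tested on simulated data. The number of arrays limits the precision.

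The members, gene lists, motifs and tests were chosen with earlier results of these data known. Named were the members past the threshold (none), the 10 of smallest p, the 5 largest differences each way, the 5 brightest and 5 dimmest, a fixed set of well-known members, and the related genes of smallest p, with exceptions stated. The design text pairs each KO with a WT littermate, and the titles give the numbers: deviations from group means correlated by 0.34, 0.22 and 0.46 within pairs, and by -0.41 to 0.24 between mice of different numbers. WT 2 correlated more with KO 1 (0.24) than with KO 2 (0.22), so pair 2 is less certain. The numbers were taken to pair the mice.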

Additional observations from a re-analysis of the deposited data

How the results depend on the processing

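No member was called under any of the 14 alternatives, and the lowest adjusted p was 0.197, with array weights. Direction was the same in all of them for 38 of 72 members, 29 positive and 9 negative. The median member difference stayed above 0, from 0.015 without WT 3 to 0.062, and the members above 0 numbered 40 (array weights) to 54. With median centring in place of quantile normalisation 56.9% of members were above 0, against 41.0% of all genes, whose median was then -0.033. The fit with littermates as a replicate block called 26 genes in all, against 20 without it, and changed no member call. Over all genes, 31 were called without background correction, 31 with the authors' values, 1 without the detection filter, 46 with array weights, and 1 to 24 with an array left out: 1 without WT 1 or KO 1, 7 without WT 2, 2 without KO 2, 4 without KO 3 and 24 without WT 3. Members whose groups did not overlap numbered 16 (22.2%, against 13.3% of all genes) with the mean of a gene's probes. With an array left out, where fewer arrays make separation easier, they numbered 12 to 21, and the share of all genes was 19.7% to 26.8%: 12 without KO 1 (16.7% against 19.7%), 15 without KO 2 (20.8% against 21.6%), 16 without KO 3 (22.2% against 26.1%), 18 without WT 3 (25% against 26.8%), 19 without WT 1 (26.4% against 21.1%) and 21 without WT 2 (29.2% against 23.2%). Members at an unadjusted limma p under 0.05 were 4 (5.56%, against 7.86% of all genes) without background correction, 1 (1.39% against 7.22%) with median centring, 4 (5.56% against 7.85%) with the authors' values, 1 (1.43% against 7.44%) with detection on all 6 arrays required, 4 (5.26% against 6.60%) without the filter and 1 to 2 (against 4.85% to 8.91%) with an array left out. The small subunit median was 0.00025 with median centring, 0.0068 with array weights, 0.0529 with the mean of probes and 0.0113 to 0.0574 with an array left out. Sign turned for 6 of the 28 members named by the rule, and for Mrpl10 (-0.11 to 0.018), Mrpl13 (-0.17 to 0.054), Mrpl46 (-0.024 to 0.11) and Mrpl49 (-0.15 to 0.087) among the others named. Mrpl44 was -0.030 with median centring and -0.061 with array weights, and -0.0692 to 0.152 with an array left out, below 0 without WT 3, KO 1 or KO 3. Mrpl51 was -0.027 with median centring and -0.022 with array weights, and -0.248 to 0.185 with an array left out, below 0 without WT 1, WT 2 or KO 3. Mrps18a was -0.0987 to 0.0503 with an array left out, above 0 without WT 1, WT 2 or KO 3. Mrps22 was -0.054 with array weights, and -0.0929 to 0.136 with an array left out. Mrpl23 was -0.0123 to 0.122 and Mrpl34 -0.369 to 0.0171, and these 3 turned without WT 3. The cause was not tested. Leaving out each array for the 35 other probes was chosen after seeing the data and left 28 to 32 above 0. A slide or scan block was not run, since the headers used here name none. Members near the background, such as Mrpl39, Mrpl57 and Mrpl51, have differences whose size the correction sets.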
